A study of Mus musculus with 6 samples.

Results

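The m6A writer complex is described here through 7 genes, Mettl3, Mettl14, Wtap, Rbm15, Rbm15b, Cbll1 and Zc3h13, found by gene symbol in a table of 9120 genes; all 7 were listed. The table holds RNA sequencing values of MPC5 cells in 6 libraries; MPC5 is a mouse podocyte line, conditionally immortalised. Cells were kept in high glucose (30 mM) in both groups; 3 control libraries came from cells given scrambled small interfering RNA (siRNA) and 3 knockdown libraries from cells given siRNA against Mettl3. Before transfection, which lasted 6 h, all cells had been grown at 33 °C with interferon gamma and then held for 7 days at 37 °C without it, a step meant to make the line differentiate. The libraries are of bulk RNA from 1 cell line, and the sources used here do not give the time from transfection to harvest.

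N6-methyladenosine (m6A) is a methyl mark that a nuclear complex places on adenosines of mRNA while the RNA is being made. METTL3 carries the catalytic site and METTL14 binds beside it and helps to hold the RNA substrate, so the pair forms the enzymatic core. WTAP, VIRMA, ZC3H13, CBLL1 (also called HAKAI) and the RNA-binding adaptors RBM15 and RBM15B form the regulatory part of the complex, which keeps the core in the nucleus and brings it to its target RNAs.

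Expression is given as FPKM, a fragment count that the authors scaled by transcript length and by library size. Knockdown was compared with control by limma on log2(FPKM + 1) across 8047 genes that reached 1 FPKM in at least 3 libraries, with a threshold of 0.05 on the Benjamini-Hochberg adjusted p. Each of the 7 genes passed that filter, 5 of them with at least 1 FPKM in all 6 libraries and Mettl14 and Cbll1 in 5. Fold changes are on the log2(FPKM + 1) scale, knockdown minus control, which understates differences of genes near 1 FPKM. Counts and depth are not in the table, so no counting error can be given.

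Some features of the libraries bear on the values that follow. FPKM summed to between 173721 and 176526 per library. The titles give replicate 3 of both groups codes of another form than the other 4 libraries (called HG-coded here), and replicate 3 was set off along the first principal component (44.3% of the variance). Of 14 podocyte markers, 8 were listed, from Wt1 at 0.37 to 0.71 FPKM and Synpo at 0.33 to 1.25 to Actn4 at 104 to 113 and Vim at 594 to 951; the slit diaphragm gene Nphs1 is not analysed here. None of 7 endothelial markers, 1 of 9 tubule markers and 1 of 8 immune markers were listed, the last as Csf1r at 0.12 to 1.10 FPKM, whereas 6 of 8 mesangial and fibroblast markers were listed, from Des at 0.86 to 1.73 FPKM to Col1a1 at 1464 to 3285.

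The targeted gene was lower in every knockdown library. Mettl3 (ENSMUSG00000022160.18, GRCm38 chromosome 14, 52294841 to 52305128, minus strand) stood at 5.87, 6.34 and 5.75 FPKM in replicates 1, 2 and 3 of the controls and at 3.68, 3.85 and 3.90 FPKM in those of the knockdown. The groups did not overlap, and the highest knockdown library lay below the lowest control. The means were 5.99 ± 0.31 and 3.81 ± 0.11 FPKM (SD, n = 3 each), 36.3% lower in knockdown. The log2 fold change was -0.54 (limma, 95% interval -0.77 to -0.31). Its unadjusted p ranked 6th among the 8047 genes tested, yet the limma adjusted p was 0.799, and exact two-sided permutation gave p = 0.1, its floor for 3 libraries against 3. Bulk libraries cannot tell fewer cells that took up the siRNA from less Mettl3 RNA in each cell.

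GENCODE M21 lists 15 transcripts for Mettl3, 10 of them coding, and the gene-level value does not separate them. In the union of its annotated exons, 933 of 5076 bases (18.4%) are also exonic in Tox4, a DNA-binding protein gene on the opposite strand. The sources used here do not say whether strand was used in assigning reads, so part of the Mettl3 value is uncertain. Tox4 itself stood at 7.69, 7.22 and 9.04 FPKM in replicates 1, 2 and 3 of the controls and at 7.52, 7.53 and 8.33 FPKM in those of the knockdown. The Tox4 groups overlapped (log2 fold change -0.03, SE 0.11, limma adjusted p = 0.998).

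Of the 7 writer genes, 0 passed the threshold between knockdown and control, where 0% of all 8047 genes did. At an unadjusted p under 0.05 there was 1 of 7, Mettl3, against 4.55% of all genes. The groups were apart without overlap and lower in knockdown for Mettl3, as they were for 4.01% of all genes, and apart and higher for Mettl14, as for 6.06%. The 6 members other than Mettl3 were split evenly, with 3 log2 fold changes on either side of 0 and 0.01 as their median; over all genes tested the median was 0.02 and 54.7% were above 0.

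**Figure D1:**
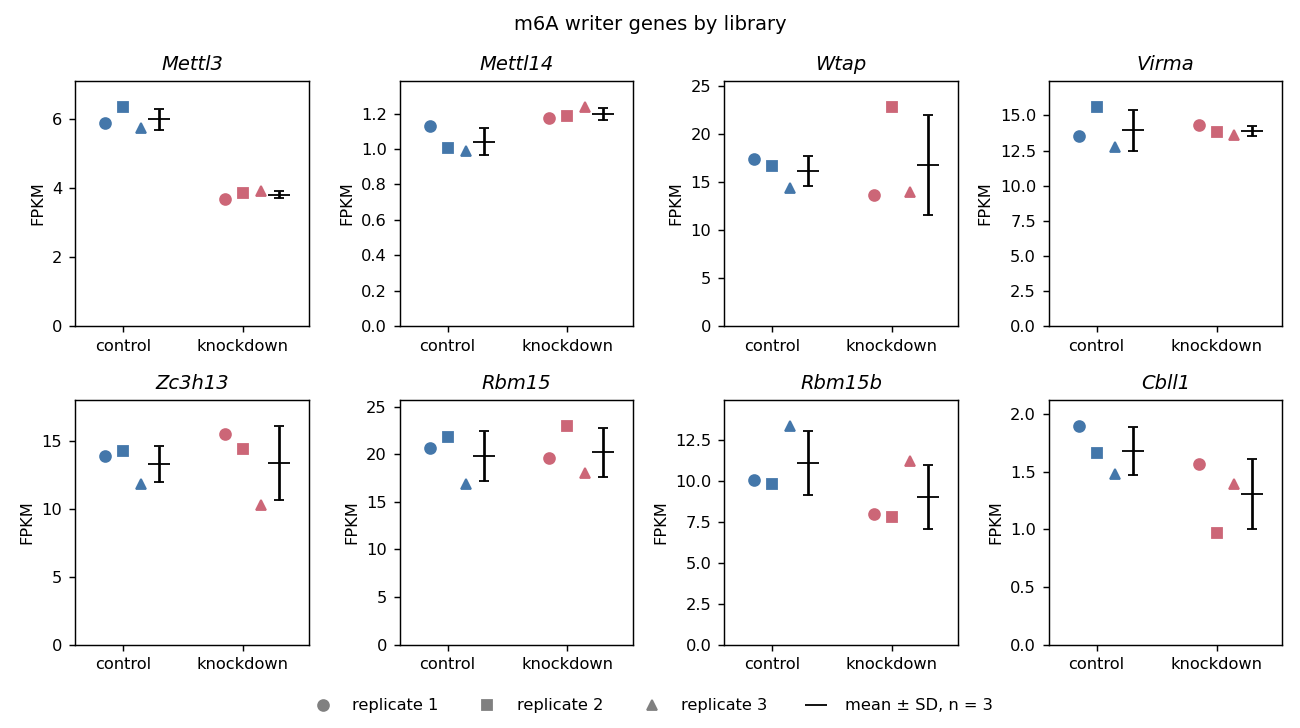
Expression (FPKM, vertical axes from 0) of the 7 writer genes and Virma in 3 control and 3 knockdown libraries; symbols mark the replicate number and black bars the mean ± SD (n = 3). Mettl3 lies at 5.75 to 6.34 FPKM in controls and 3.68 to 3.90 in knockdown, while Rbm15b is higher and Zc3h13 lower in replicate 3 (triangles) than in the other libraries.

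Mettl14, which encodes the partner of METTL3 in the core, had the lowest FPKM of the writers in control cells. Mettl14 (ENSMUSG00000028114.16, chromosome 3, 123368297 to 123386108, minus strand) stood at 1.13, 1.01 and 0.989 FPKM in replicates 1, 2 and 3 of the controls and at 1.17, 1.19 and 1.24 FPKM in those of the knockdown. Each knockdown library lay above each control, by a narrow margin. The means were 1.04 ± 0.08 and 1.198 ± 0.033 FPKM (SD, n = 3 each), 14.99% higher in knockdown, and exact permutation again gave its floor, p = 0.1. The log2 fold change of 0.11 (95% interval -0.16 to 0.37) did not pass (limma adjusted p = 0.998). A pseudocount of 0.1 in place of 1 gave 0.19 (95% interval -0.32 to 0.69).

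The ratio of the core transcripts restates the values of Mettl3 and Mettl14 given above. The ratio of Mettl3 to Mettl14 FPKM was 5.20, 6.30 and 5.81 in replicates 1, 2 and 3 of the controls and 3.14, 3.25 and 3.16 in those of the knockdown. A ratio within a library does not depend on how the libraries were scaled. Every knockdown library was below every control for Mettl3 and above every control for Mettl14. Ratios without overlap, their sign in each pair and the permutation p therefore follow from those values and are not a separate result. The mean ratio was 5.77 ± 0.55 (SD, n = 3) for controls against 3.18 ± 0.06 for knockdown, or -0.85 as a log2 difference which was negative in each same-numbered pair (-0.73, -0.96 and -0.88); the exact permutation p was 0.1, the smallest possible.

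Wtap, which encodes the subunit that anchors METTL3 and METTL14 in nuclear speckles, was the most scattered of the writers in knockdown. Wtap (ENSMUSG00000060475.12, chromosome 17, minus strand) stood at 17.4, 16.7 and 14.4 FPKM in replicates 1, 2 and 3 of the controls and at 13.7, 22.8 and 13.9 FPKM in those of the knockdown. Knockdown replicate 2 was the highest of the 6 libraries and the other two knockdown libraries were the lowest. The log2 fold change was 0.02 (95% interval -0.45 to 0.49, limma adjusted p = 0.998), and without knockdown replicate 2 it was -0.21 (SE 0.12, limma adjusted p = 0.999). The ratio of Mettl3 to Wtap was 0.34, 0.38 and 0.40 in replicates 1, 2 and 3 of the controls and 0.27, 0.17 and 0.28 in those of the knockdown, also without overlap (exact permutation p = 0.1). It holds the same Mettl3 values and is not a separate result.

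**Figure D2:**
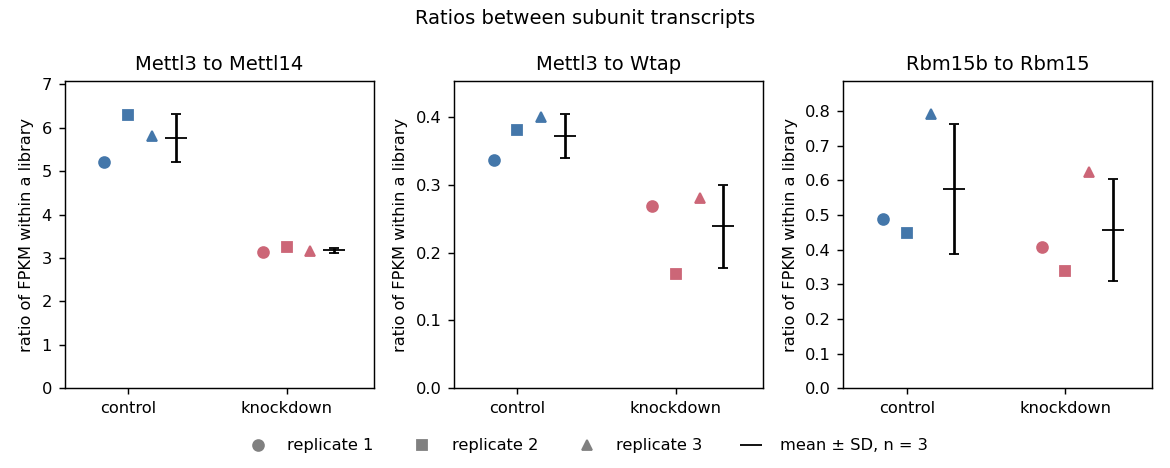
Ratios of FPKM within each library (vertical axes from 0) for Mettl3 to Mettl14, Mettl3 to Wtap and Rbm15b to Rbm15, with the mean ± SD (n = 3) of each group. The Mettl3 to Mettl14 ratio is 5.20 to 6.30 in controls and 3.14 to 3.25 in knockdown; the Rbm15b to Rbm15 ratio is highest in replicate 3 of each group.

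The large structural subunits had log2 fold changes near 0, with intervals that allow a difference in either direction. Zc3h13 (ENSMUSG00000022000.11, chromosome 14, 75284373 to 75344426, plus strand), whose product is known to retain the complex in the nucleus, stood at 13.96, 14.3 and 11.8 FPKM in replicates 1, 2 and 3 of the controls and at 15.5, 14.4 and 10.3 FPKM in those of the knockdown. The lowest library of each group was replicate 3, and the knockdown group spanned the whole range of the controls. Its log2 fold change was -0.01 (95% interval -0.39 to 0.37, limma adjusted p = 0.998). In the HG-coded libraries alone it was 0.08, and the difference between the replicate 3 libraries was -0.18, with no test within a single pair. Virma, the scaffold of the regulatory part and an added gene outside the 7, stood at 13.5, 15.6 and 12.7 FPKM in replicates 1, 2 and 3 of the controls and at 14.3, 13.8 and 13.6 FPKM in those of the knockdown (log2 fold change -0.001, 95% interval -0.24 to 0.24).

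The adaptor genes Rbm15 and Rbm15b encode related proteins that bind uridine-rich RNA and guide the complex to nearby adenosines. Rbm15 (ENSMUSG00000048109.10, chromosome 3, 107325421 to 107333673, minus strand) stood at 20.7, 21.9 and 16.9 FPKM in replicates 1, 2 and 3 of the controls and at 19.6, 23.0 and 18.0 FPKM in those of the knockdown. The groups overlapped, with a log2 fold change of 0.03 (95% interval -0.29 to 0.34, limma adjusted p = 0.998). Rbm15b (ENSMUSG00000074102.4, chromosome 9, 106880918 to 106887428, minus strand) stood at 10.1, 9.83 and 13.4 FPKM in replicates 1, 2 and 3 of the controls and at 7.96, 7.81 and 11.2 FPKM in those of the knockdown. Each knockdown library was below the control of the same number, but replicate 3 was the highest of each group, so the groups overlapped.

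The Rbm15b means were 11.1 ± 2.0 and 9.003 ± 1.94 FPKM (SD, n = 3 each), 18.8% lower in knockdown, with a log2 fold change of -0.28 (95% interval -0.69 to 0.13, limma adjusted p = 0.998). The differences in same-numbered pairs were close to one another, -0.31, -0.30 and -0.23. With the title code as a covariate the interval narrowed to -0.44 to -0.12, and the limma adjusted p of 0.217 did not pass; over all alternatives run it ranged from 0.217 to 0.9998. Without control replicate 3 the log2 fold change was -0.15, and without knockdown replicate 3 it was -0.43. Exons of Rbm15b share 14 bases with Manf on the same strand and 75 with Dcaf1 on the opposite strand (0.2% and 1.2% of its exonic bases), and neither neighbour differed past the threshold between the groups (limma adjusted p = 0.998 for both).

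Cbll1, which encodes an E3 ubiquitin ligase of the complex, was a low transcript with widely spread values. Cbll1 (ENSMUSG00000020659.16, chromosome 12, 31484829 to 31499616, minus strand) stood at 1.90, 1.66 and 1.48 FPKM in replicates 1, 2 and 3 of the controls and at 1.56, 0.967 and 1.39 FPKM in those of the knockdown. Knockdown replicate 2 was the lowest and the other two knockdown libraries lay near or within the control range. The means were 1.68 ± 0.21 and 1.31 ± 0.31 FPKM (SD, n = 3 each). The log2 fold change was -0.22 (95% interval -0.57 to 0.12, limma adjusted p = 0.998). It was -0.11 without knockdown replicate 2, and -0.36 (SE 0.24) with a pseudocount of 0.1. An antisense gene model not analysed here, Gm29542, covers 704 (17.6%) of the exonic bases of Cbll1, and its share of the reads was not tested.

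By same-numbered pairs, 3 of the 7 members (Mettl3, Rbm15b and Cbll1) were lower in knockdown in all 3 pairs, against 15.3% of all genes tested, and 1 (Mettl14) was higher in all 3, against 20.1%. With the title code as a covariate, 2 of 7 had an unadjusted p under 0.05 by limma, Mettl3 and Rbm15b, against 12.1% of all genes; 0 of 7 passed the adjusted threshold, as for 0% of all genes. For Mettl3 that fit gave a limma adjusted p of 0.112, within a range of 0.112 to 0.9998 over the alternatives.

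**Figure D3:**
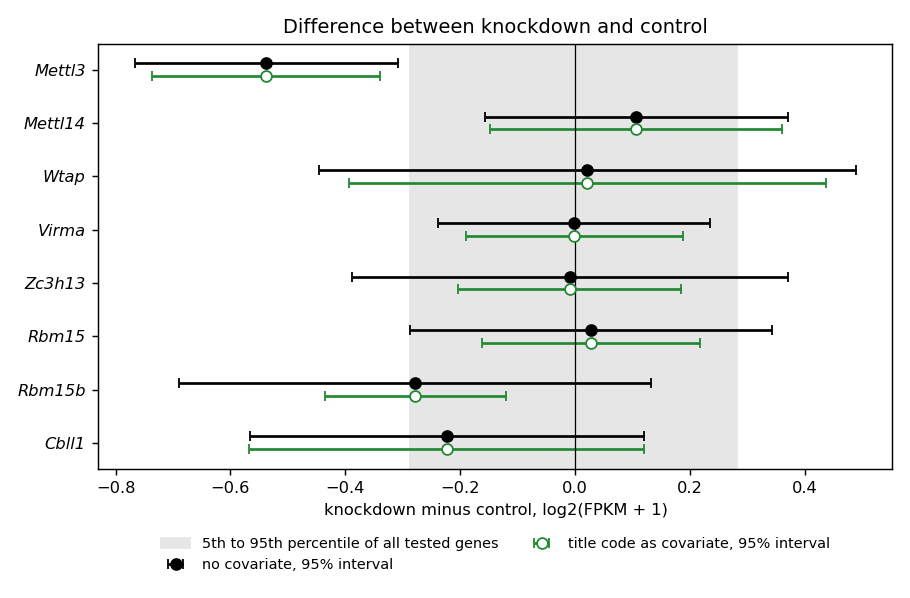
Knockdown minus control on the log2(FPKM + 1) scale (horizontal axis) for the 7 writer genes and Virma, with 95% limma intervals without a covariate (black) and with the title code as covariate (green); the grey band spans the 5th to 95th percentile of all tested genes, -0.29 to 0.28. Mettl3 at -0.54 lies outside the band, Rbm15b at -0.28 lies at its edge, and the Rbm15b interval is narrower with the covariate.

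FPKM is scaled by transcript length, so levels were set side by side across genes, with limits. The transcript lengths used are not known, and annotated transcripts of Mettl14 run from 382 to 7197 bases. Exonic overlap with other genes (18.4% of bases in Mettl3, 17.6% in Cbll1) also makes levels uncertain, as strand use is not stated. In controls the order was Rbm15 (19.8 ± 2.6 FPKM, SD, n = 3), Wtap (16.2 ± 1.6), Virma (13.9 ± 1.5), Zc3h13 (13.4 ± 1.3), Rbm15b (11.1 ± 2.0), Mettl3 (5.99 ± 0.31), Cbll1 (1.68 ± 0.21) and Mettl14 (1.04 ± 0.08). Neighbours from Rbm15 to Rbm15b overlapped in their control values, whereas Mettl3, Cbll1 and Mettl14 were each apart from their neighbours. Rbm15 ranked 1st and Mettl3 6th of these 8 genes in each of the 6 libraries, and Mettl14 ranked last in 5, with Cbll1 last in knockdown replicate 2. Among all 9120 listed genes, 80.4% had a lower control mean than Rbm15, 52.4% a lower one than Mettl3 and 13.4% a lower one than Mettl14.

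Replicate 3 of both groups was also compared with the HG-coded libraries. With the group as a covariate, limma called 2 of the 7 members between these libraries. Over all genes 18.8% were called, 6.23% higher and 12.6% lower in replicate 3. With so few members, that count is not read as a trait of the writers. Rbm15b rose in replicate 3 by 0.43 on the log2 scale (SE 0.07, limma adjusted p = 0.0102), from 7.81 to 10.1 FPKM in the HG-coded libraries to 11.2 and 13.4. Its overlapping neighbours were also called here, Manf at 0.31 (SE 0.08, limma adjusted p = 0.0379) and Dcaf1 at -0.22 (SE 0.06, limma adjusted p = 0.0376). Any part of shared reads in these differences was not tested. Zc3h13 fell by 0.37 (SE 0.09, limma adjusted p = 0.0326), from 13.96 to 15.5 FPKM to 10.3 and 11.8. Rbm15 differed by -0.27 (SE 0.08) and did not pass (limma adjusted p = 0.071), and Mettl3 differed by -0.02 (95% interval -0.23 to 0.20).

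The Rbm15b to Rbm15 ratio, chosen after its values were seen and given without a test, was 0.79 and 0.62 in control and knockdown replicate 3 and 0.34 to 0.49 in the HG-coded libraries. The summed FPKM of both adaptors was 30.8, 31.7 and 30.3 in replicates 1, 2 and 3 of the controls and 27.5, 30.8 and 29.3 in those of the knockdown. Marker lists did not move as one with replicate 3. The 6 listed mesangial and fibroblast markers summed to 1521 to 2009 FPKM in the HG-coded libraries and to 3206 and 3377 in replicate 3, a sum made up almost wholly of Col1a1 (mean 1738 and 3199 FPKM); of these 6, limma called Col1a1 and Acta2 higher and Pdgfrb lower in replicate 3, and the median log2 difference was -0.09. The 8 listed podocyte markers summed to 794 to 812 and to 1089 and 1136 FPKM, where Vim went from a mean of 605 to 927; of the 6 tested, Vim was called higher and Kirrel lower, and the median log2 difference was -0.18. The part of these markers in the Rbm15b and Zc3h13 differences was not tested.

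**Figure D4:**
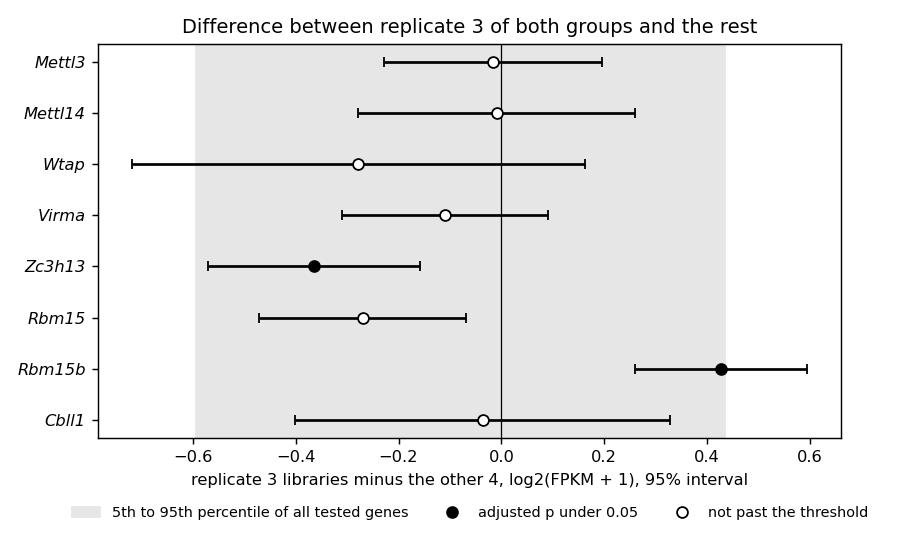
Replicate 3 libraries minus the other 4, on the log2(FPKM + 1) scale with 95% limma intervals and the group as covariate (horizontal axis), for the 7 writer genes and Virma; filled points passed an adjusted p of 0.05, and the grey band spans the 5th to 95th percentile of all tested genes. Rbm15b at 0.43 and Zc3h13 at -0.37 are filled, and Mettl3 and Mettl14 lie near 0.

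Other genes of m6A and methyl metabolism were described by lists. Among 4 tested genes of other RNA adenosine methyltransferases and their partners (of 6 on the list), 3 had a positive and 1 a negative log2 fold change (median 0.02), and limma called 0 in either direction. Those with the smallest unadjusted p were Pcif1, which methylates the cap-adjacent adenosine (4.34 ± 0.03 against 4.02 ± 0.65 FPKM, SD, n = 3 each), and Mettl5, an 18S ribosomal RNA methyltransferase (5.31 ± 0.96 against 5.66 ± 0.36). Of 16 tested erasers and readers 10 had a positive and 6 a negative value (median 0.03), and 0 were called; the demethylase gene Alkbh5 measured 15.6 ± 1.1 against 17.6 ± 0.68 FPKM and the RNA-binding protein gene Fmr1 17.9 ± 4.9 against 15.2 ± 3.6.

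Of 10 tested genes that supply or recycle S-adenosylmethionine, the methyl donor of the complex, 6 had a positive and 4 a negative value (median 0.08), and 0 were called. Ahcyl1, related to the hydrolase that clears the spent donor, measured 100.5 ± 6.4 against 87.2 ± 3.6 FPKM (log2 fold change -0.20, limma adjusted p = 0.998). Mat2b, the regulatory subunit of the synthetase, measured 11.1 ± 0.54 against 12.98 ± 0.85 FPKM (log2 fold change 0.20, limma adjusted p = 0.998). Of 25 other methyltransferase-like genes 7 were listed and 4 tested, 3 with a positive and 1 with a negative value (median 0.09) and 0 called; Mettl26 measured 12.1 ± 3.5 against 13.4 ± 0.62 FPKM and Mettl6 1.11 ± 0.65 against 1.31 ± 0.03. The 3 listed below the filter, which had no test, all had a lower mean in knockdown: Mettl25 by 53.2%, Mettl2 by 25.5% and Mettl21a by 23.9%. Mettl25 averaged 1.06 FPKM in controls and 0.494 in knockdown. No listed gene had a larger group mean under 0.5005 FPKM, so Mettl25 was listed only through its controls. No share over all genes below the filter was computed, and no direction is read from these 3 genes.

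The genes whose values over the 6 libraries most resembled those of Mettl3 were picked by Pearson correlation of log2(FPKM + 1) among 4764 tested genes with a mean of at least 5 FPKM. They included Marf1, an RNA-binding regulator of mRNA stability (r = 0.999), the actin-associated gene Rai14 (0.997), 2510039O18Rik (0.981) and the growth factor gene Vegfa (0.979). Marf1 stood at 23.7, 24.2 and 23.2 FPKM in replicates 1, 2 and 3 of the controls and at 20.2, 20.5 and 20.5 FPKM in those of the knockdown. None of these 4 passed the threshold (limma adjusted p from 0.799 to 0.998). With 6 libraries in 2 groups and this many genes compared, the correlations are a description of these libraries. Among the other writers, r with Mettl3 was 0.62 for Cbll1, 0.54 for Rbm15b, -0.84 for Mettl14 and between -0.02 and 0.01 for Wtap, Rbm15 and Zc3h13. Of the 4764 genes, 91.7% had a lower r than Cbll1, 88.3% than Rbm15b and 2.79% than Mettl14. For Wtap, Rbm15 and Zc3h13 the share was 53.4% to 55.5%. Because Mettl3 was apart between the groups, each r in part repeats the knockdown difference of that gene. Timp2, the transcript that the series title names as a target of METTL3, had a log2 fold change of -0.16 (SE 0.07, limma adjusted p = 0.998).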

How the data were processed

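Per the file headers, the deposited values are FPKM per gene. Named in the submitters' processing notes, with no role or order, are StringTie 1.2.2, HISAT2 2.0.4, cutadapt 1.17, FastQC 0.11.7, R 2.10.0 and the build mm9. Of 9120 listed genes, 9110 matched GENCODE M21 by identifier and 8377 had its exact span on GRCm38, so coordinates are given as GRCm38; the Wtap span differed and is not printed. Taking each listed gene's larger group mean, the smallest was 0.5005 FPKM. Low values of 858 single-transcript genes were checked for whole reads: at most 21.3% of the 150 lowest per library came out whole within 0.05 of a read, so depth is unknown. A 0 can be a failed estimate (Rps15 is at 0 in 5 libraries); no writer gene was at 0.

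Groups and replicate numbers come from the titles, and replicates are biological per the series' design text. The main test was limma 3.58.1 (R 4.3.3) on log2(FPKM + 1) (intensity trend, two-sided). It was run on simulated data that held no replicate 3 difference and only changes larger than that of Mettl3. That run therefore does not show how the fit behaves on these libraries. Single values were also tested by exact permutation over the libraries. Same-numbered libraries deviated together from their group means (r = 0.23, 0.20 and 0.56 for numbers 1 to 3), so the replicate number was added as a block in another fit; the pairing is read from the data, and crossed pairs of numbers 1 and 2 correlated alike (0.26 and 0.23). Alternatives were other filters, pseudocounts, scalings and variance models, the block, the title code, the HG-coded libraries alone and leaving out each library.

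Named genes are the 7 members with Virma, Timp2, the 2 genes per list with the smallest unadjusted p, and the 5 most like Mettl3, of which 1 is not reported here. The members and lists were chosen with earlier results of these data known.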

Additional observations from a re-analysis of the deposited data

How the results depend on the processing

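Under 15 alternatives the number of writer genes past the threshold stayed at 0, replicate block and title code included, and the log2 fold change of Mettl3 ranged from -0.64 (pseudocount 0.1) to -0.50 (without control replicate 2) and never passed. The replicate block changed no call: with it the count over all genes was 0 and Mettl3 was at -0.54 (limma adjusted p = 0.256). Over all genes the count of calls, 0 in the reported fit, was 1 with a robust variance without trend and 2 in the HG-coded libraries alone, and 0 to 2 with each library left out in turn (2 without control replicate 2 and 2 without knockdown replicate 3); none of these calls was a writer gene, and the cause was not tested. Directions near 0 turned. In the HG-coded libraries alone Rbm15 was at -0.0031 and Zc3h13 at 0.078. With each library left out in turn, Rbm15 ranged from -0.078 to 0.102, Wtap from -0.21 to 0.14 and Zc3h13 from -0.12 to 0.16. Mettl14, Cbll1 and Rbm15b kept their sign under every alternative that could be run; a filter at 5 FPKM leaves Mettl14 and Cbll1 untested. The Mettl3 to Mettl14 ratio kept its direction (log2 difference -0.93 to -0.64), which follows from groups that did not overlap for either gene. The lack of counts leaves the precision of the low genes Mettl14 and Cbll1 unknown.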
